A study of Mus musculus with 10 samples.

Results

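The nuclear genes for subunits of the respiratory chain and of ATP synthase were measured by RNA sequencing in 10 mice. They were chosen by symbol from the deposited count table, as the Nduf, Sdh, Uqcr, Cyc1, Cox4 to Cox8 and Atp5 genes without pseudogene names, which gave 87 of the 25078 genes listed. They were grouped into complex I (37 genes), complex II (4), complex III (9), complex IV (20, with Ndufa4 and Ndufa4l2) and complex V (17). The cells were LSK cells (lineage-negative, Sca-1+ and c-Kit+), the bone marrow fraction that holds hematopoietic stem cells and early progenitors. The first genotype was CM (Cbfb56M/+/Mx1-Cre), in which poly(I:C) switches on the CBFB-MYH11 fusion gene of inv(16) leukemia, and the second was CM/miR-126Δ/Δ (Cbfb56M/+/miR-126flox/flox/Mx1-Cre), which also loses miR-126, with 5 mice of each. Both genotypes thus carried the fusion allele and Mx1-Cre. They received 7 doses of poly(I:C), started at 6 to 8 weeks of age in mice of both sexes. The cells were sorted 6 weeks after the last dose, before leukemia. Mx1-Cre acts in any cell that responds to interferon, and mice without the fusion gene were not analysed here, so each comparison is between fusion-bearing cells with and without miR-126.

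The respiratory chain passes electrons from NADH (through complex I) and succinate (through complex II) by ubiquinone to complex III, and from there by cytochrome c to complex IV, which reduces oxygen. Complexes I, III and IV pump protons across the inner mitochondrial membrane, and complex V, the ATP synthase, uses the gradient to make ATP. Hematopoietic stem cells at rest are known for a low reliance on oxidative phosphorylation, which rises as they divide and differentiate. The subunits encoded in mitochondrial DNA were not analysed here.

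Libraries held 23649233 to 33202086 counts in CM mice and 24141663 to 26615091 in CM/miR-126Δ/Δ mice. The labels give RNA at 20.6 to 40.9 ng/µl for CM mice and 16.1 to 29.5 ng/µl for CM/miR-126Δ/Δ mice. The miR-126 precursor gene Mir126a was counted 4, 5, 0, 2 and 3 times in CM mice 1 to 5 and never in the second genotype, a difference in the direction of the labels that rests on few counts. Stem and progenitor markers were abundant (Kit, the c-Kit receptor, 702 to 1001 CPM, counts scaled to library size, over the 10 mice; Cd34 791 to 1025 CPM), and the globin genes Hba-a1 and Hbb-bt had no count. The granule genes of neutrophils S100a8, S100a9, Ngp, Ltf and Camp summed to 348 CPM in CM/miR-126Δ/Δ mouse 4 and 153 CPM in CM mouse 5, against 1.48 to 29.8 CPM in the other 8. With Elane and Mpo of the same marker list added, the sums of these 2 mice were 2069 and 2103 CPM. Those sums ran from 1278 to 3753 CPM in CM/miR-126Δ/Δ mice and from 1534 to 3059 CPM in CM mice. Marker sums of the other blood cell types overlapped between the genotypes, with monocyte and macrophage markers between 189 and 388 CPM in CM mice and between 213 and 340 CPM without miR-126, and erythroid markers at 12.7 to 122 and 31.4 to 91.1 CPM. Samples are separate mice by their labels, so p-values measure the spread between mice.

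All 5 complexes were well expressed in LSK cells. Of all counts, the 87 genes together made up 0.532% ± 0.0292 (SD, n = 5) in CM mice and 0.498% ± 0.0310 in CM/miR-126Δ/Δ mice. All counts include those of the ribosomal RNA gene Rn45s, which were 14.8% to 18.5% in CM mice and 16.6% to 22.6% in CM/miR-126Δ/Δ mice. These shares thus depend in part on Rn45s. Levels between genes are compared as RPKM, reads per kilobase of exon scaled to library size, computed here from the counts. By mean over the 10 mice, 9 members were at 100 RPKM or above, 29 between 50 and 100, 33 between 10 and 50, 6 between 1 and 10, and 10 below 1.

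The highest levels were those of the catalytic core of ATP synthase. Atp5b, the beta subunit that carries the catalytic sites, had a mean of 385 RPKM, and Atp5a1, the alpha subunit, 285 RPKM. These 2 genes alone gave 14.1% and 13.4% of all counts of the 87 genes. In complex IV, Cox4i1, a subunit needed to assemble the complex, had 232 RPKM and Ndufa4, once counted with complex I, 153 RPKM. In complex III, the hinge protein gene Uqcrh had 133 RPKM and the core protein gene Uqcrc1 79.9 RPKM. In complex II, the flavoprotein Sdha had 88.2 RPKM and the membrane anchor Sdhd 65.2 RPKM. In complex I, the small accessory subunit Ndufa3 had 90.2 RPKM. The median member of complex I was at 32.4 RPKM, below those of complex II (64.7), complex III (57.7), complex IV (38.9) and complex V (51.6).

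Members at 10 RPKM or more varied little between mice, with a median coefficient of variation of 8.77% over the 10 mice (71 genes). It was lowest for Ndufs4, an assembly-relevant subunit of the electron input arm of complex I (2.98%), and highest for Ndufb8, a membrane arm subunit (18.5%). Both were singled out after their values were seen.

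Several subunit genes that are widely expressed were nearly or wholly without counts. Ndufs5, a complex I accessory subunit, had 0 counts in all 10 libraries. Atp5l (subunit g of ATP synthase) had a mean of 8.7 counts, Atp5g2 (a c-ring gene) 12.6, Atp5md (a small membrane subunit) 17.6 and Cox7c (a complex IV subunit) 41.2 counts, where Cox4i1 had 4833.6. Except for Atp5g2, these genes were singled out after their values were seen. Such genes have processed copies in the genome, so each member's transcript was cut into all its windows of 51 bases, the read length, and the mouse reference (build mm9) was searched for exact copies outside the gene. Of 85 members with a reference transcript, 44 had no copied window, 60 had at least 90% of their windows without a copy, and 9 had under 50%. The share without a copy was 0% for Atp5g2, 10.6% for Atp5l, 20.2% for Ndufs5, 20.3% for Atp5md, 26.4% for Atp5g1 and 51.96% for Cox7c, and 100% for Cox4i1, Sdhb and Atp5a1.

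The windows below, from the coding sequences of GENCODE M1 transcripts, show this at the level of the read, 1 window for each of 4 genes with low counts and Cox4i1 for contrast. All are in lower case, since no part of them is singled out.
Ndufs5: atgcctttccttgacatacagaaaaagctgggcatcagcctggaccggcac
Cox7c: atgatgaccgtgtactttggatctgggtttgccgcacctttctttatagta
Atp5l: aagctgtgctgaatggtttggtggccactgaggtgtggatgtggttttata
Atp5g2: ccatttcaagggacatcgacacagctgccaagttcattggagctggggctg
Cox4i1: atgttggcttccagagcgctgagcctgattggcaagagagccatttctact

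The Ndufs5, Cox7c and Cox4i1 windows are the first 51 bases of the reading frame. The Ndufs5 window stood once more in the genome, at chr16:42955744-42955794 (mm9) in the pseudogene BC002163 within Zbtb20. The Cox7c window had 3 further copies, at chr11:75413289-75413339 in the pseudogene Gm12338, chr14:39193850-39193900 in Gm3386 and chr17:26038924-26038974 in the pseudogene Gm10012. The Atp5l window, bases 215 to 265 of the reading frame, had 9 copies, the Atp5g2 window, bases 203 to 253, had 4, and the Cox4i1 window had 0. Of the Cox7c copies, Gm12338 and Gm10012 are genes of the count table. Gm12338 was counted 85, 83, 57, 84 and 71 times in CM mice 1 to 5 and 59, 60, 48, 70 and 43 times in those without miR-126, and Gm10012 had 2 to 14 counts. The pseudogene with the Cox7c sequence thus held more counts than the mean of Cox7c itself.

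Low levels and copied windows went together only in part. The 9 members with under 50% of windows without a copy had a median of 3.86 RPKM, and 5 of them were below 5 RPKM. Among the 76 members with 50% or more, 8 were below 5 RPKM. Cox7a2l (46.1% of windows without a copy) still had 65.0 RPKM, and Atp5h, the stalk subunit d (32.9%), 50.7 RPKM. How reads with several equal positions were treated by the counting was not tested, and the levels of the 9 members cannot be read as those of their genes.

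**Figure D1:**
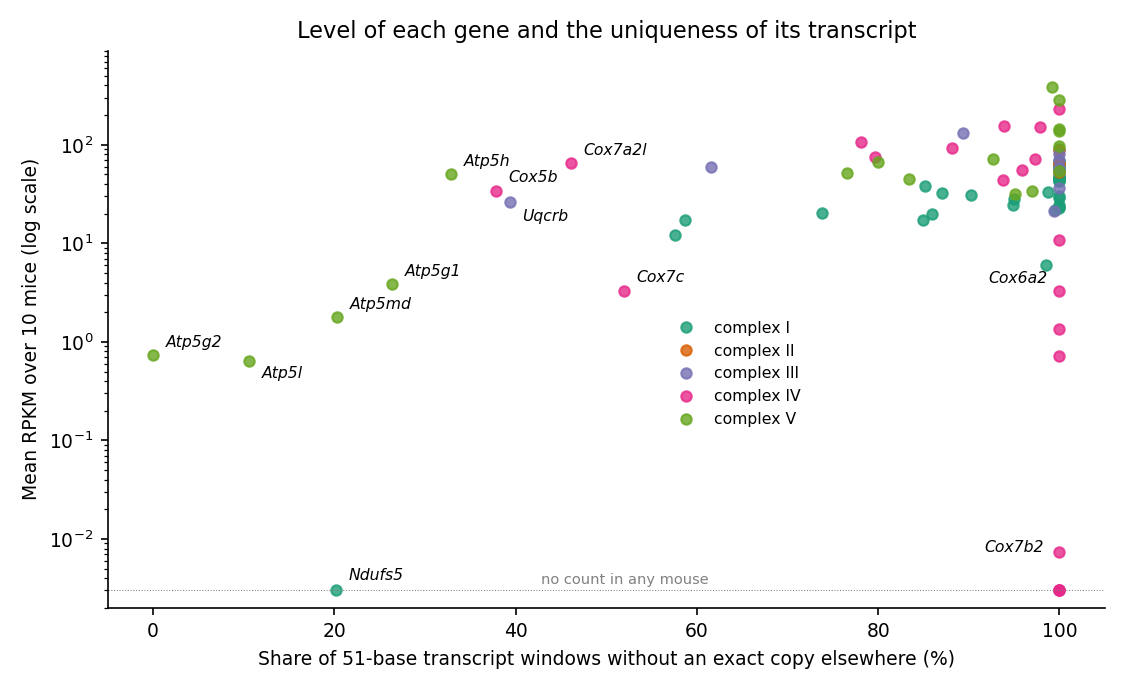
Mean RPKM over 10 mice (log axis) against the share of 51-base transcript windows without an exact copy elsewhere in mm9, for 85 respiratory chain genes coloured by complex. Ndufs5, Atp5l, Atp5g2, Atp5md and Atp5g1 lie low at the left, Cox7a2l and Atp5h lie high at 46.1% and 32.9%, and the low genes at the right are tissue isoforms such as Cox6a2 and Cox7b2. Genes without counts are drawn on the dotted line.

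Complex IV and the c-ring of ATP synthase have subunits with several genes, of which some are used in muscle, testis or lung. In LSK cells the widely used gene held nearly all of the RPKM of the Cox4i, Cox7b, Cox8 and Ndufa4 families and less of the others. Cox4i1 held 99.4% ± 0.301 (SD, n = 5 CM mice) and 99.5% ± 0.123 (n = 5 CM/miR-126Δ/Δ mice) of the pair with Cox4i2, the oxygen-responsive lung isoform, which had 11 to 59 counts per library. Cox4i2 overlaps Bcl2l1 on the opposite strand (means of 39.5 CPM for CM and 35.5 for CM/miR-126Δ/Δ mice). Whether reads were assigned by strand is not given, so these few counts may include reads of Bcl2l1. Cox8b and Cox8c, the muscle and testis isoforms of Cox8a, had no count, and Cox7b2, the testis isoform of Cox7b, had 1 count in all libraries together. Ndufa4l2, a hypoxia-induced relative of Ndufa4, had no count. No count in a library of this depth allows up to 0.0904 to 0.127 CPM (3 counts), a limit that covers counting error only. Cox7a1, the muscle isoform, had 3 to 14 counts and 0.637% ± 0.274 of the Cox7a family in CM mice and 0.554% ± 0.252 in CM/miR-126Δ/Δ mice, while Cox7a2 and the supercomplex factor Cox7a2l held 45.9% and 53.5% over the 10 mice. Cox7a2l has 46.1% of its windows without a copy, so the shares of this family, too, depend on how copied reads were counted.

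A pair of isoforms known from other tissues were above trace levels. Cox6b2, the testis isoform, had 155 to 213 counts per library and 6.23% ± 0.502 of the Cox6b pair in CM mice and 7.14% ± 0.867 in CM/miR-126Δ/Δ mice. Cox6a2, the heart and muscle isoform, had 21 to 154 counts per library and 4.35% ± 1.79 of the Cox6a pair in CM mice and 2.20% ± 0.733 in CM/miR-126Δ/Δ mice. Among the 10 shares compared, that of Cox6a2 had the smallest p (exact permutation test, two-sided, p = 0.0317, adjusted p = 0.317), followed by Cox6b2 (p = 0.0873, adjusted p = 0.437). Neither share passed the correction.

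The c subunit of ATP synthase is made from 3 genes that give the same mature protein. Atp5g3 held 96.8% of their RPKM over the 10 mice, Atp5g1 2.72% and Atp5g2 0.521%, but the latter pair have 26.4% and 0% of their windows without a copy, so these shares depend on how copied reads were counted.

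**Figure D2:**
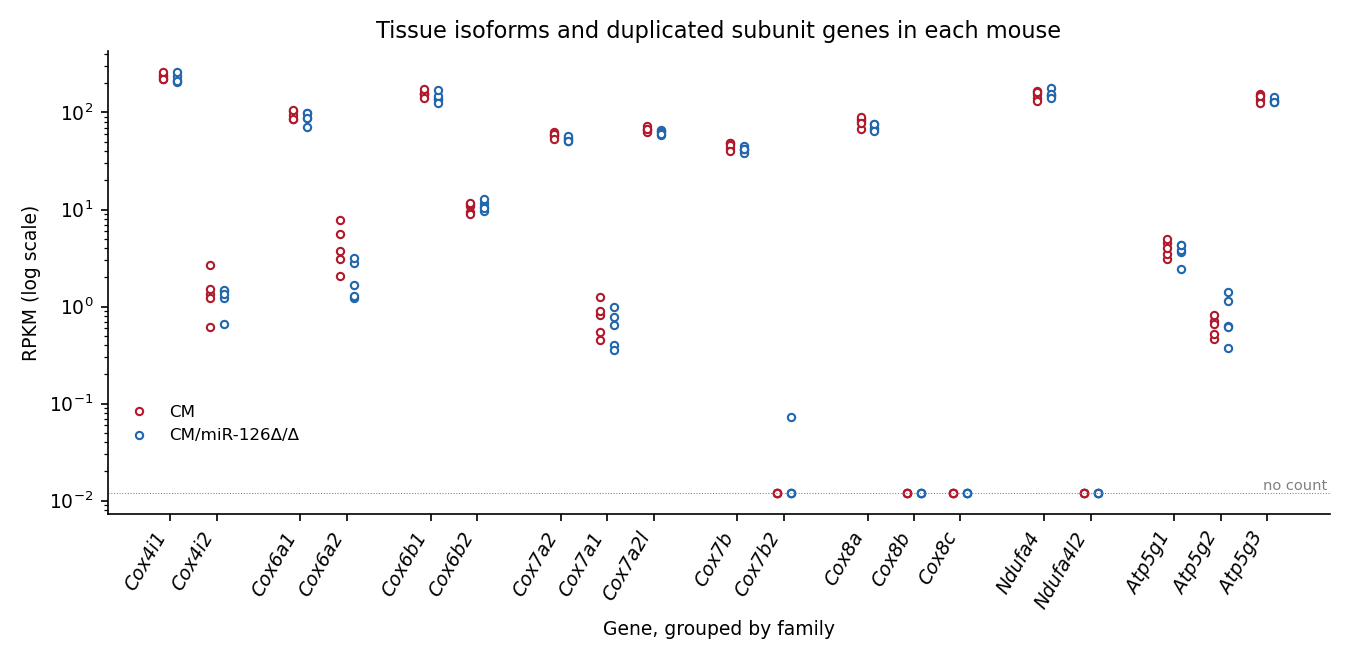
RPKM (log axis) of the members of 8 subunit families in each CM (red) and CM/miR-126Δ/Δ (blue) mouse, 1 point per mouse. The widely used gene stands far above its relatives in each Cox and Ndufa4 family except Cox7a, where Cox7a2 and Cox7a2l are close together, and Cox8b, Cox8c and Ndufa4l2 are on the dotted line of no count.

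The comparison of the genotypes asks which of these genes differed in LSK cells when miR-126 was deleted beside the fusion gene. The differences were small and most pointed down, and no member passed the correction for the 18747 genes tested. Of the 82 members with at least 1 count, 71 had a log2 fold change (CM/miR-126Δ/Δ over CM) below 0, against 52.6% of all genes tested. Their median was −0.077, where that of all genes tested was −0.010. In the 77 members with a mean of at least 1 RPKM in a genotype, 70 were below 0, against 57.5% of the genes at that level.

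By edgeR's quasi-likelihood test, 0 of the 82 members had an adjusted p under 0.05, against 0.0107% of all genes tested (2 genes). At an unadjusted p under 0.05, 3 members were lower in CM/miR-126Δ/Δ mice, against 3.32% of all genes, and 0 were higher, against 3.29%. The share of members is thus close to the background for lower genes. With DESeq2, 4 members had an unadjusted p under 0.05 (6.07% of all genes in either direction) and 0 an adjusted p under 0.05 (0.33% of all genes). A cutoff like that of the study, p at most 0.01 with a 1.5-fold change and at least 1 RPKM, was met by 1 member, Cox6a2, and by 0.462% of all genes at that level. In no member did the CPM of the 5 mice of one genotype lie apart from those of the other, which 1.1% of all genes did.

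Stem cell markers moved beside these values. Of the 10 stem and progenitor markers, 7 had a higher mean in CM/miR-126Δ/Δ mice, 3 were higher with an unadjusted p under 0.05, and 0 had an adjusted p under 0.05 by edgeR. The 3 were the transcription factors of stem cells Hlf (log2 fold change 0.31 ± 0.099), Meis1 (0.19 ± 0.075) and Mecom (0.24 ± 0.11). The summed level of the list was between 3184 and 3790 CPM in CM mice and between 3110 and 3815 CPM without miR-126, and none of the markers was at 0. Their part in the respiratory chain values was not tested.

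**Figure D3:**
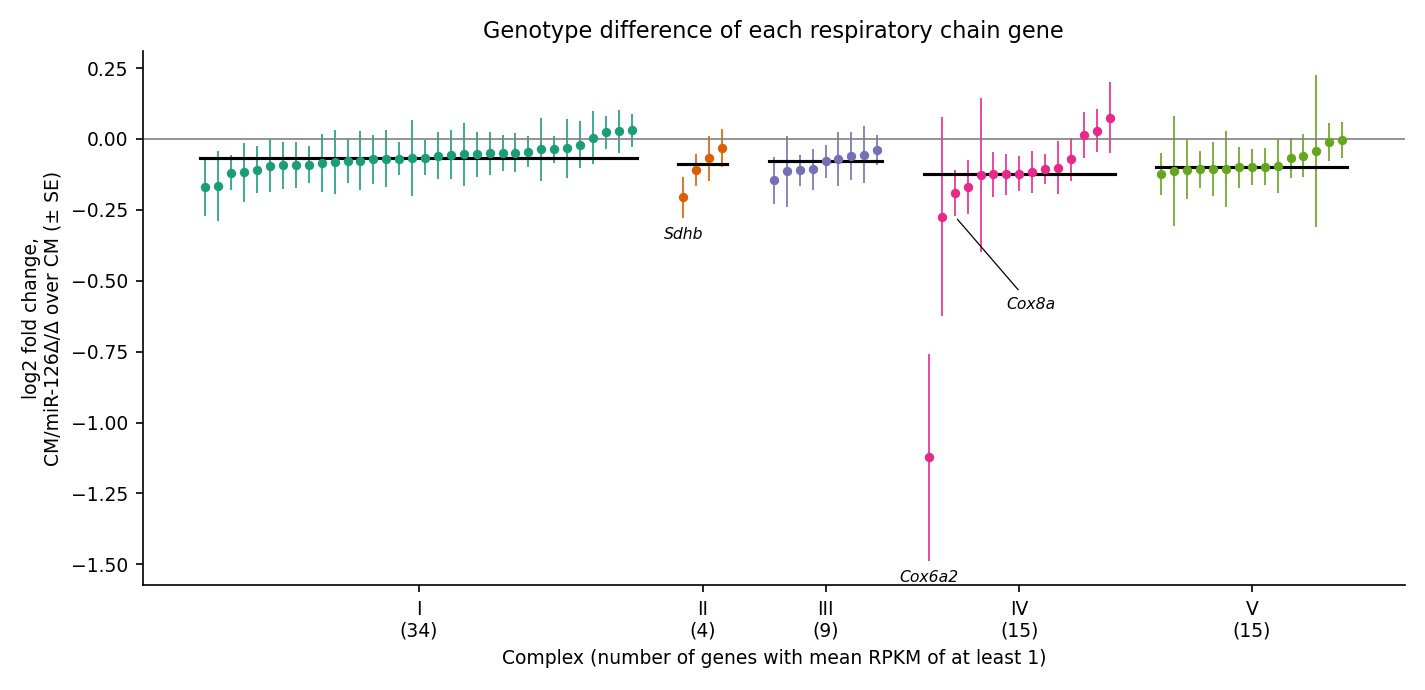
Log2 fold change of CM/miR-126Δ/Δ over CM (points) with its standard error (bars) for the 77 respiratory chain genes with a mean of at least 1 RPKM, ordered by value within complexes I to V. Black lines are the medians of the genes drawn. Most points lie slightly below 0 in every complex, and Cox6a2 stands apart at −1.12.

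The complexes differed little in this respect. The median log2 fold change was −0.067 for complex I (30 of 35 tested members below 0), −0.089 for complex II (4 of 4), −0.079 for complex III (9 of 9), −0.12 for complex IV (13 of 17) and −0.098 for complex V (15 of 17). No difference between complexes was tested. The 3 members with an unadjusted p under 0.05 were Sdhb of complex II and Cox8a and Cox6a2 of complex IV.

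Sdhb is the iron-sulfur subunit of succinate dehydrogenase, which hands electrons from the flavoprotein to ubiquinone. It had 67.8, 55.2, 57.9, 67.6 and 59.7 CPM in CM mice 1 to 5 and 53.0, 47.7, 57.4, 57.2 and 51.96 CPM in CM/miR-126Δ/Δ mice 1 to 5. CM mice 1 and 4 were the highest, and CM/miR-126Δ/Δ mice 3 and 4 lay above CM mouse 2, so the groups overlapped. The log2 fold change was −0.21 ± 0.073 (SE), or 0.867 times the CM level, with an adjusted p = 0.734 by edgeR. It stayed between −0.24 and −0.15 over 20 other settings of the fit, with adjusted p between 0.263 and 0.906. The other subunits of the complex were closer to 0, with Sdhc, a membrane anchor, at −0.11 ± 0.056 (adjusted p = 0.764 by edgeR), Sdhd at −0.068 ± 0.080 and Sdha at −0.032 ± 0.066. The sign of Sdha changed when CM mouse 1 or CM/miR-126Δ/Δ mouse 4 was left out.

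Cox8a is the widely expressed form of a small membrane-spanning subunit of complex IV. It had 46.8, 44.7, 37.1, 48.5 and 42.5 CPM in CM mice and 36.8, 37.9, 41.0, 41.9 and 34.7 CPM in CM/miR-126Δ/Δ mice. CM mouse 3 lay among the CM/miR-126Δ/Δ mice and the other 4 CM mice above them. The log2 fold change was −0.19 ± 0.080 (SE; adjusted p = 0.746 by edgeR), between −0.23 and −0.12 over 20 other settings. Its unadjusted p was not under 0.05 with length offsets or with the filter of a mean RPKM of at least 1. The same held without CM mouse 1, 2 or 4, or without CM/miR-126Δ/Δ mouse 1, 2 or 5. Of its 51-base windows, 79.6% had no exact copy elsewhere.

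Cox6a2 had the largest difference of the members above 1 RPKM, at a low level. It had 1.36, 5.09, 2.05, 3.73 and 2.44 CPM in CM mice and 0.816, 0.848, 1.87, 2.10 and 1.11 CPM in CM/miR-126Δ/Δ mice. CM mice 2, 4 and 5 lay above all CM/miR-126Δ/Δ mice, while CM mice 1 and 3 lay among them. The log2 fold change was −1.12 ± 0.37 (SE; adjusted p = 0.661 by edgeR), between −1.39 and −0.83 over 20 other settings. Its widely used partner Cox6a1 had −0.10 ± 0.093. The 4 muscle markers summed to 0.202 to 0.450 CPM in CM mice and 0.223 to 0.363 CPM without miR-126, with Myh7 and Tnnt2 at 0 in all libraries.

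Some other genes were also lower beside Cox6a2. It overlaps Itgad, an integrin gene on the opposite strand, which had 6.84, 0.529, 6.14, 7.66 and 4.29 CPM in CM mice and 2.14 to 3.09 CPM in CM/miR-126Δ/Δ mice (adjusted p = 0.764 by edgeR), and the sources used here do not say if reads were assigned by strand. CM mouse 2, the highest for Cox6a2, was the lowest for Itgad. Cox6a2 is also a known transcript of plasmacytoid dendritic cells. Of 8 markers of these cells, a list chosen after the values of Cox6a2 were seen, 7 had a lower mean in CM/miR-126Δ/Δ mice, 3 had an unadjusted p under 0.05 and 0 passed the correction. Over all genes tested, 52.6% had a log2 fold change below 0, and 3.32% were lower at an unadjusted p under 0.05 by edgeR. Siglech, a defining surface lectin, was at 3.86 to 10.1 CPM in CM mice and 1.73 to 3.93 CPM in CM/miR-126Δ/Δ mice. Ccr9, a homing receptor, was at 2.45 to 4.09 and 1.13 to 2.42 CPM. CM mouse 3 was the highest for both, where CM mouse 2 was the highest for Cox6a2. CM/miR-126Δ/Δ mouse 1 was the highest of its genotype for Siglech and the lowest for Cox6a2. In Ccr9 and Cox6a2 alike, CM mouse 1 was the lowest CM mouse and CM/miR-126Δ/Δ mouse 4 the highest of its genotype. The summed level of the list, in which Tcf4 and Irf8 dominate, was between 296 and 377 CPM in CM mice and between 291 and 408 CPM without miR-126. The part of either in the Cox6a2 values was not tested. In these bulk samples, fewer cells of a type and less RNA per cell cannot be told apart.

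In the ATP synthase, the most abundant member had the smallest p of its complex. Atp5b had 804, 769, 736, 778 and 683 CPM in CM mice and 690, 680, 729, 686 and 675 CPM in CM/miR-126Δ/Δ mice. CM mouse 5 lay among the CM/miR-126Δ/Δ mice, and the log2 fold change was −0.12 ± 0.074 (SE; adjusted p = 0.765 by edgeR). Atp5c1, the central stalk subunit gamma, was at −0.11 ± 0.065, Atp5a1 at −0.060 ± 0.076 and Atp5g3 at −0.098 ± 0.064. In complex III, the core protein gene Uqcrc2 was at −0.11 ± 0.055 and the small subunit Uqcr10 at −0.15 ± 0.084. Uqcrh was at −0.060 ± 0.084 and Uqcrc1 at −0.079 ± 0.058.

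In complex I, the members with the smallest p were accessory subunits. Ndufb5 was at −0.12 ± 0.063 and Ndufc1 at −0.17 ± 0.10, while Ndufa3 (−0.059 ± 0.083) was closer to 0. The log2 fold changes of tested complex I members ran from −0.17 to 0.56, the upper end being Ndufa11b, a gene with a mean of 3.6 counts. In complex IV, 4 of 17 tested members were above 0. They were Ndufa4 (0.029 ± 0.077), Cox6b2 (0.075 ± 0.12), Cox6c (0.014 ± 0.081) and Cox7b2, which had the single count. The sign of Ndufa4 changed without CM mouse 5 or CM/miR-126Δ/Δ mouse 3. Cox4i1 was at −0.072 ± 0.076, Cox6b1 at −0.12 ± 0.079, Cox7a2 at −0.12 ± 0.063, Cox7a2l at −0.11 ± 0.054 and Cox7b at −0.12 ± 0.071, and none of them had an unadjusted p under 0.05.

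The level of the chain in each mouse was taken as the median, over the 77 members with a mean of at least 1 RPKM, of the log2 CPM minus the gene's mean over the 10 mice. It was 0.085, 0.027, 0.017, 0.16 and −0.074 in CM mice 1 to 5 and −0.080, −0.13, 0.031, 0.086 and −0.077 in CM/miR-126Δ/Δ mice 1 to 5. The means were 0.043 ± 0.087 (SD, n = 5) and −0.034 ± 0.089, so the difference between the genotypes was smaller than the SD within either. CM mouse 4 was the highest of the 10 mice in each of the 5 complexes, while the lowest was CM/miR-126Δ/Δ mouse 2 in complexes I to III, CM/miR-126Δ/Δ mouse 1 in complex IV and CM mouse 5 in complex V. The 2 genotypes overlapped in every complex. In complex II, the closest to apart, CM mice lay between −0.019 and 0.16 and CM/miR-126Δ/Δ mice between −0.15 and 0.015.

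**Figure D4:**
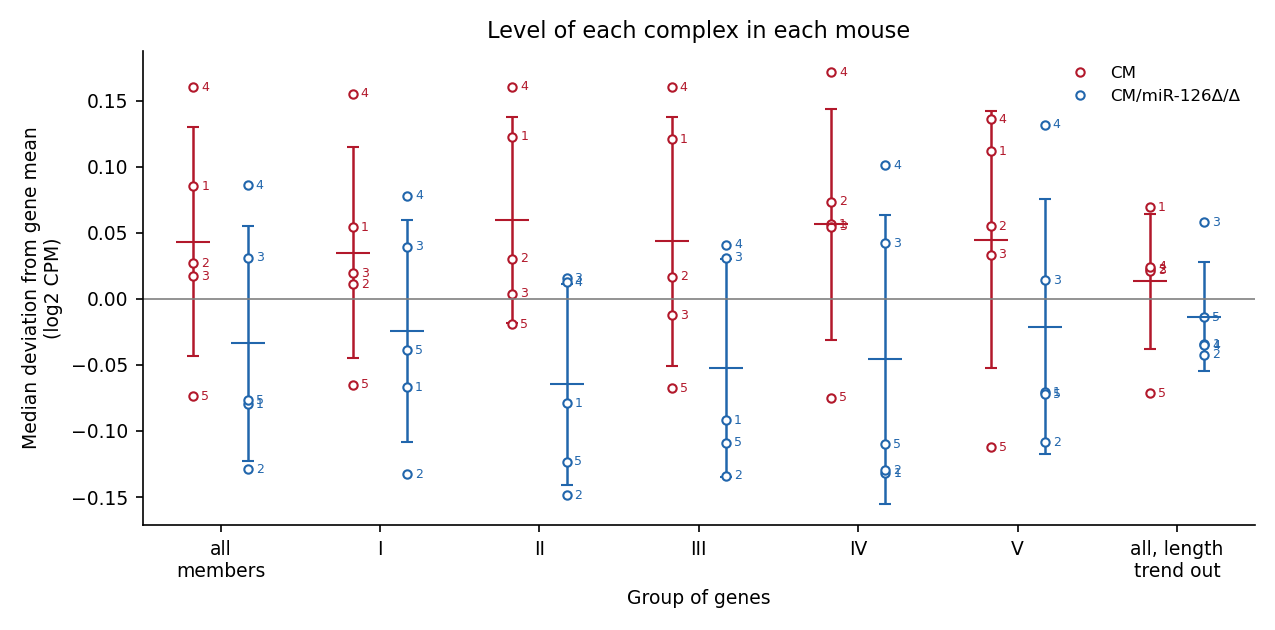
Level of all respiratory chain genes and of complexes I to V in each mouse, as the median deviation of log2 CPM from the gene means, in CM (red) and CM/miR-126Δ/Δ (blue). Points are mice with their replicate number, and bars are mean ± SD (n = 5). CM mouse 4 is the highest in each complex and the genotypes overlap in all of them. The last column has each library's trend with exon length taken out.

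Respiratory chain genes are short, and the libraries differed with gene length. The median total exon length of the 87 genes was 729 bases, against 2707 bases over all genes tested. The trend of each library's log2 level with exon length was taken at the lengths of the members. It was 0.152 in CM mouse 4 and 0.128 in CM/miR-126Δ/Δ mouse 4. In the other CM mice it was −0.0073 to 0.011, and in the other CM/miR-126Δ/Δ mice it was lower, at −0.093 to −0.030. Apart from mouse 4 of each genotype, the trend thus went with genotype. From 500 to 2000 bases, all genes of like length differed between the genotypes by about as much as the members did. Between 500 and 1000 bases, the median log2 fold change was −0.083 over 708 genes with at least 1 RPKM and −0.088 over the 36 members among them. Between 1000 and 1500 bases it was −0.073 over 1089 genes and −0.080 over 12 members, and between 1500 and 2000 bases −0.061 over 1289 genes and −0.074 over 12 members. Under 500 bases the 2 parted, at 0.064 over 499 genes and −0.11 over 12 members. Above 5000 bases, where there were no members, the median was 0.046. The part of gene length in the members' values was not tested.

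Since the trend went in part with genotype, an offset for it also removes any genotype difference shared by genes of like length. With each library's length trend as an offset in the fit, 58 of 82 members were below 0, against 54.1% of all genes. The median of the members was −0.030, against −0.014 for all genes. The complex medians were then −0.011 for complex I, −0.038 for complex II, −0.037 for complex III, −0.061 for complex IV and −0.038 for complex V. Sdhb was at −0.15, Cox8a at −0.13 and Cox6a2 at −1.07, and 2 members, Sdhb and Cox6a2, had an unadjusted p under 0.05. With the trend taken out, CM mouse 4 had a level of 0.024 and CM/miR-126Δ/Δ mouse 4 of −0.035, and the means of the genotypes were 0.013 ± 0.051 (SD, n = 5) and −0.013 ± 0.041.

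**Figure D5:**
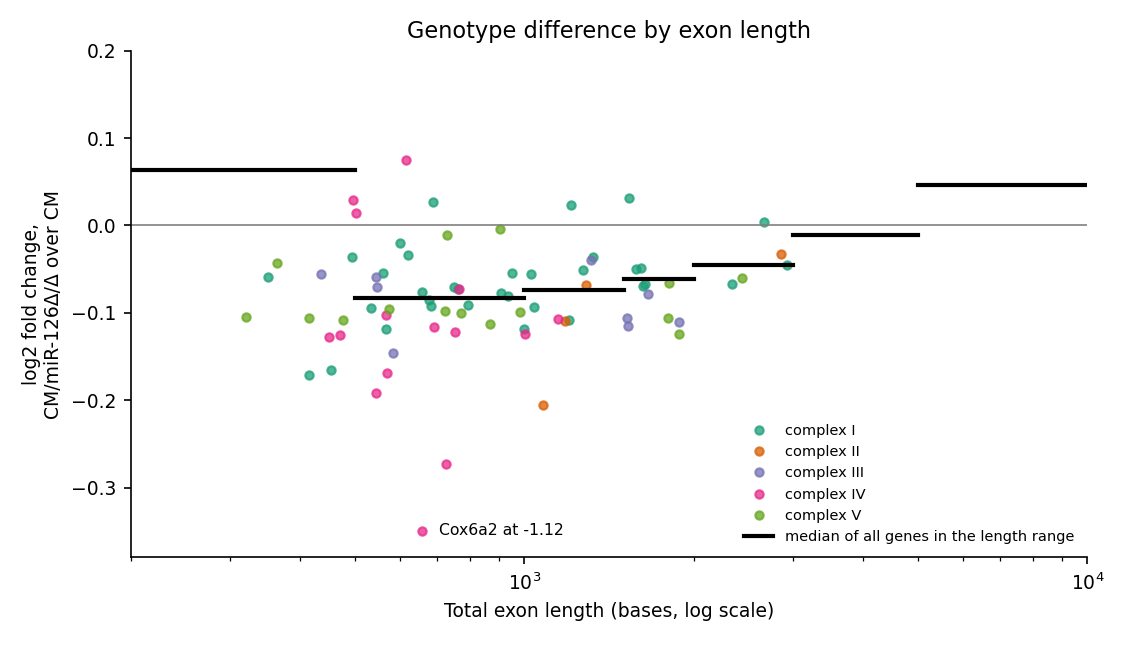
Log2 fold change of CM/miR-126Δ/Δ over CM against total exon length (log axis) for the 77 respiratory chain genes with a mean of at least 1 RPKM, coloured by complex. Black lines are medians of all genes of at least 1 RPKM in each range of length, the last range being 5000 bases and above. From 500 to 3000 bases the members scatter about the medians of all genes. Cox6a2 is drawn at the lower edge, with its value beside it.

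Leaving out CM/miR-126Δ/Δ mouse 4 and CM mouse 5, the 2 libraries with the highest sums of the neutrophil granule genes, moved these values away from 0. The median of the members was then −0.13, against −0.0014 for all genes, and 15 of 81 members were lower with an unadjusted p under 0.05, against 4.3% of all genes, with 0 at an adjusted p under 0.05. These 2 libraries also had the highest level of respiratory chain genes in their CM/miR-126Δ/Δ group and the lowest in the CM group, and mouse 4 had the second strongest length trend of the 10. The count of lower members was 1 without CM mouse 1 (2.35% of all genes) or without CM mouse 4 (2.07%). It was 6 without CM mouse 5 (2.69%) or without CM/miR-126Δ/Δ mouse 3 (3.37%), and 8 without CM/miR-126Δ/Δ mouse 4 (4.29%). With Elane and Mpo added, the sums of the 2 libraries left out were not the highest. The part of neutrophil RNA in these values was not tested.

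The other mitochondrial gene lists showed differences of like size. Their counts stand against 52.6% of all genes below 0, and 3.32% lower and 3.29% higher at an unadjusted p under 0.05. Assembly factors of the complexes had a median log2 fold change of −0.058 (38 of 48 below 0), with 1 lower and 1 higher at an unadjusted p under 0.05. The higher one was Ttc19, a complex III factor, at 9.64 to 10.6 CPM in CM mice and 11.3 to 12.1 CPM without miR-126, which did not overlap (log2 fold change 0.23 ± 0.084, adjusted p = 0.746 by edgeR). The lower one was Sco2, a copper chaperone of complex IV, at a mean of 0.094 CPM or less in each genotype. The mitochondrial ribosome had a median of −0.064 (67 of 78 below 0), with 6 lower and 0 higher at an unadjusted p under 0.05, among them Mrps26 (−0.23 ± 0.080) and Mrpl24 (−0.18 ± 0.069). The enzymes of the TCA cycle had a median of −0.083 (12 of 14 below 0), with 3 lower, which were Idh3b, a subunit of the NAD-linked isocitrate dehydrogenase (−0.14 ± 0.047), Idh2, the mitochondrial NADP-linked enzyme (−0.15 ± 0.064), and Dlst, of the oxoglutarate dehydrogenase complex (−0.12 ± 0.051).

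Genes that express mitochondrial DNA had a median of −0.036 (12 of 17 below 0) with 0 at an unadjusted p under 0.05 by edgeR. Cytochrome c, ubiquinone synthesis and other electron carrier genes had a median of −0.049 (12 of 18 below 0), and Coq6, a ubiquinone synthesis hydroxylase, was the 1 at an unadjusted p under 0.05 (−0.22 ± 0.096). Transcriptional regulators of mitochondrial genes had a median of −0.017 (7 of 12 below 0), whose sign changed in some alternatives, with 0 at an unadjusted p under 0.05. No gene of these lists had an adjusted p under 0.05 by edgeR. With length offsets the medians were −0.025 for assembly factors, −0.019 for the mitochondrial ribosome, −0.041 for the TCA cycle, −0.041 for mitochondrial DNA expression, −0.012 for electron carriers and −0.056 for the regulators. Ndufab1, the acyl carrier protein that is also a complex I subunit but is outside the symbol rule, had 2.75 ± 0.636 RPKM (SD, n = 5) in CM mice and 2.71 ± 0.273 RPKM in CM/miR-126Δ/Δ mice.

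The promoters of these genes were searched for recognition letters of known mitochondrial gene regulators. In RefSeq windows from 250 bases before to 50 after each start site (build GRCm38.p6), 68 members were matched, with 73 windows, and 5 sets of letters were searched on both strands. The NRF1 letters GCATGCGC stood in 13.7% of the members' windows and 3.55% of all 22216 windows, and the ETS/GABPA letters CCGGAAG in 23.3% and 11.5%. The YY1 letters ATGGCGG stood in 15.1% and 5.18%, the ERR letters AAGGTCA in 11.0% and 4.11%, and the E-box CACGTG in 9.59% and 8.01%. Most of the members' windows thus lacked any given set, and the differences from all windows were not tested. YY1 letters were in 9 of 33 complex I windows, 2 of 18 of complex V, 0 of 3 of complex II, 0 of 5 of complex III and 0 of 14 of complex IV. A match of letters is a description of the sequence and not a site of binding.

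The promoters of Sdhb and Cox8a, the abundant members with an unadjusted p under 0.05, are printed from 150 bases before to 30 after the start site, 5′ to 3′ on the strand of the gene, with the searched letters in capitals.
Sdhb: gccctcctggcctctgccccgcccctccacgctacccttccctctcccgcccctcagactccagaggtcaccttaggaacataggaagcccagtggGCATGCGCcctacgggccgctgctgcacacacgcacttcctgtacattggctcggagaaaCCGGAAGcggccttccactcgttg
Cox8a: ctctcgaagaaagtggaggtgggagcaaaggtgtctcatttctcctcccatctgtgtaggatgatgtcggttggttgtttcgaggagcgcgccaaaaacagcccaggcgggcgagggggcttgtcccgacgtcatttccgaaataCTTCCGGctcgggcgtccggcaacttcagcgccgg

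The Sdhb window lies at chr4:140961121-140961300 on the plus strand and the Cox8a window at chr19:7217587-7217766 on the minus strand. In Sdhb the NRF1 letters began 54 bases upstream of the start site and the ETS letters just past it. In Cox8a the ETS letters, on the opposite strand, began 5 bases upstream of the start site.

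Overlap with other genes is a further limit on single values. Of the 87 members, 17 overlap another gene of the table, 13 of them a gene on the opposite strand. Among them is Atp5j, a stalk subunit gene that shares its start region with Gabpa, the gene of an ETS factor, on the opposite strand (means of 96.2 CPM for CM and 94.98 for CM/miR-126Δ/Δ mice). Atp5j was at −0.004 ± 0.064. Sdhb and Cox8a overlap no gene of the table. Gabpa and Atp5j were named after their values were seen.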

How the data were processed

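RNA sequencing of LSK cells (1 library per mouse, 5 CM and 5 CM/miR-126Δ/Δ mice, single-end reads of 51 bases from a stranded kit after ribosomal RNA depletion) was analysed from the deposited counts. Per the study's methods, the authors trimmed reads, used Tophat for alignment to mm10 and HTSeq (0.6.1p1 per the labels) for counts of RefSeq genes. The deposited counts are whole numbers per gene without normalization. A second deposited table holds the same counts divided by 1 constant per library and was not used. In R, edgeR fitted genotype alone (TMM factors, quasi-likelihood test, two-sided) to 18747 genes with at least 1 count, with Benjamini-Hochberg adjustment over all of them. RPKM used the table's exon lengths and TMM-scaled library sizes. Length trends were lowess curves (span 0.3) over genes with a mean of at least 10 counts. Scripts were tested on simulated data. Alternatives were RLE factors, Rn45s left out, 2 expression filters, DESeq2, a replicate block, length offsets, edgeR's newer test and leaving out each mouse. Versions were edgeR 4.0.16, DESeq2 1.42.0 and R 4.3.3.

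Genes were named by a rule: in each complex the 2 smallest p and the 2 highest mean RPKM, every member of the isoform families, and any member whose genotypes did not overlap (0 genes). A gene that this rule names in complex I is not reported here. Members, lists and tests were chosen with earlier results of these data known. Copy searches used mm9, whose coordinates were not mixed with those of mm10. Total counts of 23649233 to 33202086 make 3 counts worth 0.0904 to 0.127 CPM. As reads were not tagged by molecule, this limit covers counting error alone. Whether counting used the strand and kept reads with several positions is not given in the sources used here.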

Additional observations from a re-analysis of the deposited data

Results flagged for a closer look

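The outer mouse of a group of 5 stood apart from the other 4 by Dixon's test in 2 of the 72 groups of 5 tested (the CPM of named genes and the levels of the complexes, in each genotype), where chance alone flags about 1 in 20 groups. Both concern the catalytic core of ATP synthase in CM/miR-126Δ/Δ mouse 3, which lay high. Atp5b was at 729 CPM there and at 675 to 690 CPM in the other 4 mice of the genotype, and Atp5a1 at 738 CPM against 657 to 670 CPM. Atp5a1 overlaps Haus1 on the opposite strand, a gene at 24.7 to 28.8 CPM over the 10 mice. The library of CM/miR-126Δ/Δ mouse 3 also had the highest share of Rn45s counts (22.6%) of the 10. Its TMM factor (0.922) and RNA concentration (16.1 ng/µl) were the lowest. The part of these in the flagged values was not tested.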

How the results depend on the processing

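No member had an adjusted p under 0.05 under any of the 20 alternatives, and members higher with an unadjusted p under 0.05 numbered 0 in each. The count of lower members with an unadjusted p under 0.05 was 3, was 5 with a replicate block (4.62% of all genes, against 3.32%) and 1 to 8 when 1 mouse was left out. It was 15 without the 2 libraries with the highest sums of neutrophil granule genes (4.3%, chosen after seeing the data). The median log2 fold change of the members ran from −0.10 to −0.036 when 1 mouse was left out, was −0.030 with length offsets and −0.13 without those 2 libraries, and was below 0 in each alternative, as were the medians of the 5 complexes. The count of members below 0 ran from 61 to 74 when 1 mouse was left out, was 58 with length offsets and 50 of 57 among members with at least 90% of windows without a copy. Of 31 named genes, 4 changed sign in 8 of 613 refitted values. Leaving out 1 mouse gave −0.054 to 0.030 for Sdha, −0.027 to 0.079 for Ndufa4, −0.45 to 0.051 for Cox4i2 and −0.18 to 0.018 for Atp5g1. Sdha became 0.0040 without CM mouse 1, 0.030 without CM/miR-126Δ/Δ mouse 4 and 0.018 without the 2 libraries. Ndufa4 became −0.0023 without CM mouse 5, −0.027 without CM/miR-126Δ/Δ mouse 3 and −0.0038 without the 2 libraries. Cox4i2 became 0.051 without CM mouse 2, and Atp5g1 0.018 without CM/miR-126Δ/Δ mouse 1. The cause of these changes was not tested.

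The replicate numbers 1 to 5 are shared by the genotypes, but nothing in the labels says that equal numbers mark a litter or day. Library numbers in the labels are consecutive within each same-numbered pair, and what they record is not given. Deviations of same-numbered mice correlated between 0.084 and 0.45, under the limit of 0.1 in 1 of the 5 pairs. Their mean correlation was 0.27, against −0.068 for pairs of unequal number, and 5 of the 10 mice correlated best with their own number. With the replicate block the median was −0.076, 72 members were below 0 and 0 had an adjusted p under 0.05. Depth limits the isoforms at under 30 counts and the members with copied windows, whose values cover few or ambiguous reads.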
